A study of Mus musculus with 10 samples.

Results

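The genes described here were 6 transcription factors of the trophectoderm (Cdx2, Elf5, Tfap2c, Gata3, Hand1 and Tead4) and 4 simple keratins (Krt7, Krt8, Krt18 and Krt19), 10 of the 21853 protein-coding genes listed in each table, chosen by name. Their RNA was measured by bulk RNA-seq in 5 mouse embryonic stem cell (ESC) lines of J1 origin, with 2 libraries per line, and values are TPM (transcript abundance scaled to a fixed library total), which are scaled for gene length. The study compared naïve with primed pluripotency and asked how glycogen and the energy sensor AMPK bear on the exit from the naïve state. Naïve J1 cells (labelled WT) were the reference, and they, GKO, AKO and DKO cells were listed with the same naïve medium, which holds serum, leukaemia inhibitory factor and the inhibitors PD0325901 (of MEK) and CHIR99021 (of GSK3). GKO cells had lost Gys1, glycogen synthase 1, through a Cas9 guide to exon 9. AKO cells, labelled as AMPK knockout, were made with plasmids directed at Prkaa1, its α1 catalytic subunit, and sorted for RFP, and DKO cells carried both knockouts. Primed cells, labelled PJ1 with a WT genotype, grew on Matrigel with bFgf and Activin. The sources used here do not state which clones the libraries came from or whether the 2 libraries of a line were separate cultures, so p-values measure only the spread between these libraries, which may be technical.

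The trophectoderm is the outer epithelium of the blastocyst and founds the placenta. Tead4, partnered by the Hippo effector Yap1, switches on Cdx2 and Gata3 in outer cells, and Tfap2c, Elf5 and Hand1 act with them or after them in trophoblast stem cells and their descendants. Keratins are obligate partners: a type II chain (Krt7 or Krt8) pairs with a type I chain (Krt18 or Krt19) to form filaments, and Krt8 with Krt18 is the first pair to appear in the embryo. Cdx2 is also a gene of the caudal epiblast and Tfap2c one of naïve ESCs and primordial germ cells, so neither belongs to trophectoderm alone.

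The libraries were alike in what they detected, with 10537 to 11113 genes at 1 TPM or more. The listed genes summed to 500162 to 578952 TPM, lowest in primed and highest in AKO libraries, and the number of reads behind them is not given by TPM. Prkaa1 RNA was lower where the labels give its loss: 15.5 and 16.6 TPM in naïve, 7.24 and 6.94 in AKO and 2.30 and 2.04 in DKO libraries, with 12.2 and 11.96 in GKO. Prkaa2, the α2 catalytic subunit, stayed present at 2.39 and 2.41 TPM in naïve, 2.71 and 2.44 in AKO, 3.29 and 3.10 in DKO and 3.27 and 3.29 in GKO libraries. Gys1 RNA did not mark its knockouts, with 11.5 and 10.8 TPM in naïve, 9.70 and 9.98 in GKO, 12.7 and 12.2 in AKO and 12.1 and 11.7 in DKO libraries. In the limma test described below, all 9 naïve pluripotency markers were lower in primed than in naïve cells and all 6 tested primed markers higher. That comparison called 80.0% of all tested genes. A bulk value cannot tell fewer expressing cells from less RNA per cell.

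Cdx2, Tfap2c, Krt8, Krt18 and Krt19 rose in GKO cells, and Cdx2, Tead4, Krt8 and Krt18 rose in DKO cells. None of the genes passed the test in AKO cells. Of the 10 genes, 6 (Cdx2, Tfap2c, Tead4, Krt8, Krt18 and Krt19) reached 1 TPM in at least 2 libraries and were tested among 12060 genes with limma on log2(TPM + 1), with Benjamini-Hochberg adjustment. The other 4 (Elf5, Gata3, Hand1 and Krt7) stayed below that level. They are given as levels, with results of a fit that used no filter beside them.

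In GKO against naïve cells, 5 of the 6 tested genes were called at an adjusted p under 0.05, all of them higher, where 51.7% of all tested genes were called and 24.7% were called higher. Krt19 passed the filter only through the primed libraries and 1 GKO library, so its part in that count is not independent of the filter. In DKO against naïve cells 4 of 6 were called, again all higher, against 46.0% of all genes called and 21.7% called higher. In AKO against naïve cells limma called 0 of 6 against 0.224% of all genes (27 genes), and 1 of the 6, Tead4, and 1231 of all genes had an unadjusted p under 0.05. The median log2 change of the 6 genes was 0.84 in GKO, 0.35 in DKO and -0.04 in AKO cells, and the median of all tested genes was -0.01 in each. Without naïve replicate 1, 3 of the 6 were called in GKO cells, and without naïve replicate 2, DKO replicate 1 or DKO replicate 2, 2 of the 6 in DKO cells. These 3 comparisons share the naïve libraries.

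**Figure D1:**
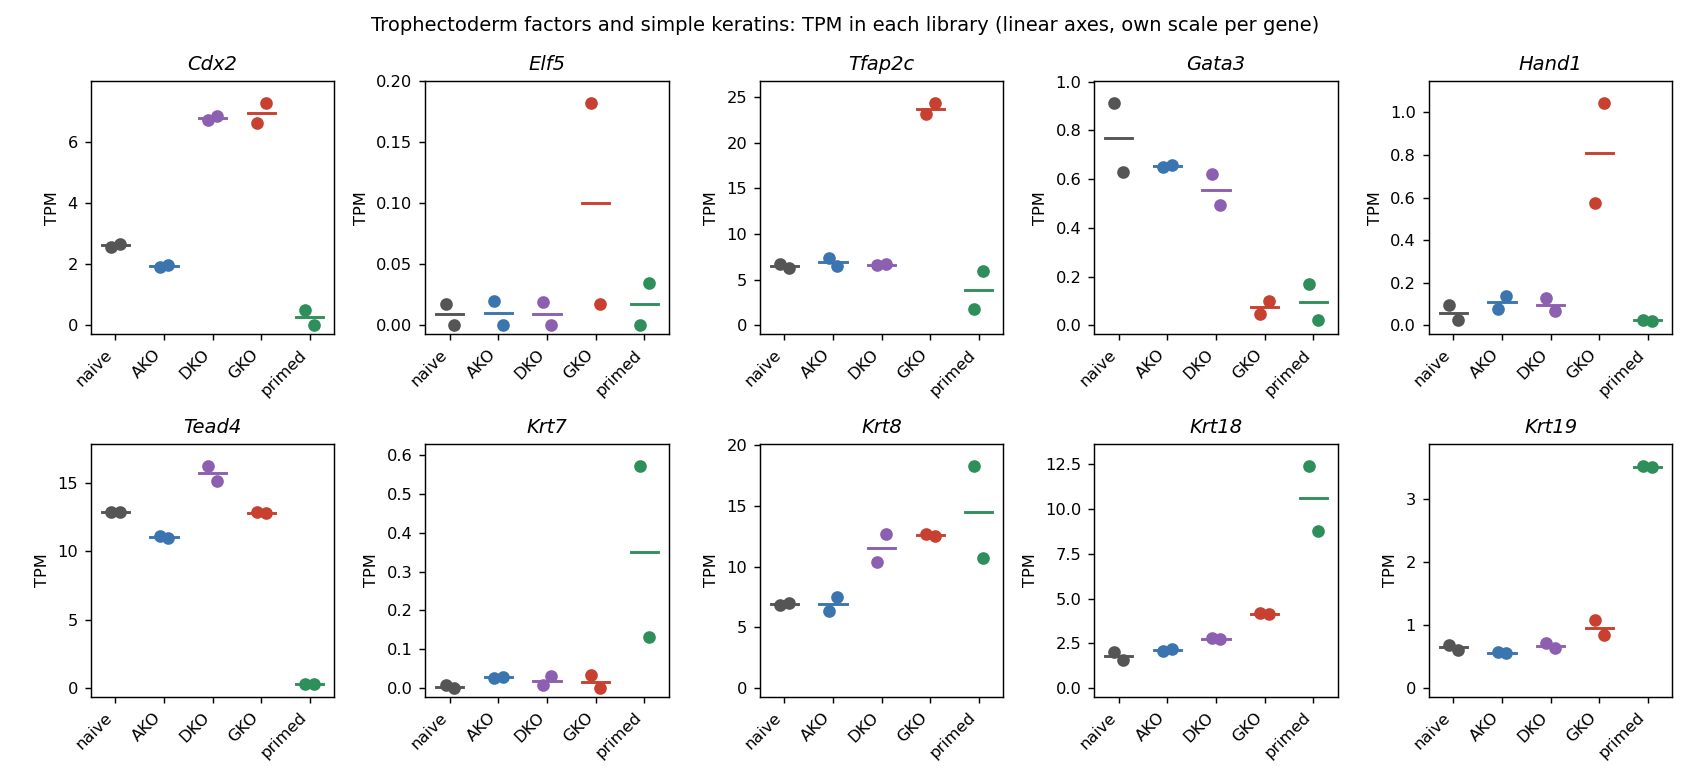
TPM of the 10 genes in each library, one panel per gene on its own linear axis; the left point of a line is replicate 1, the right point replicate 2, and the bar their mean. Cdx2 stands at 6.62 to 7.27 TPM in DKO and GKO libraries, Tfap2c at 23.2 and 24.3 TPM in GKO alone, and Tead4 at 0.294 and 0.316 TPM in primed libraries.

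**Figure D2:**
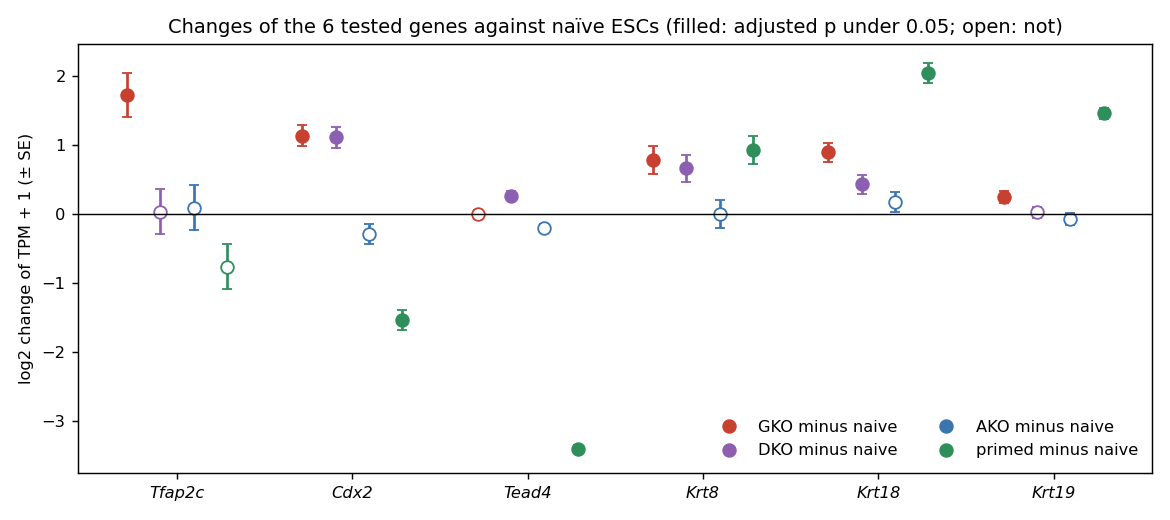
Log2 change of TPM + 1 from naïve cells with its standard error for the 6 tested genes, in GKO, DKO, AKO and primed cells; filled points have a limma adjusted p under 0.05. All AKO points are open, and the GKO points are filled for every gene but Tead4.

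Cdx2, the homeobox factor that holds trophectoderm identity, was low but present in naïve cells, at 2.57 and 2.66 TPM. It stood at 6.62 and 7.27 TPM in GKO and at 6.73 and 6.86 TPM in DKO libraries. AKO libraries held 1.93 and 1.97 TPM, and primed libraries 0.502 and 0.032 TPM. GKO and DKO thus formed an upper pair whose libraries overlapped each other, and every other pair of neighbouring lines was separate. Mean TPM was 2.65 times the naïve level in GKO and 2.6 times in DKO cells. GKO cells exceeded naïve ones by 1.13 (SE 0.148) in log2(TPM + 1), with a limma adjusted p of 0.000283. DKO cells did so by 1.11, with an adjusted p of 0.000417. Over the alternative settings the adjusted p for GKO ran from 7.19e-06 to 0.0581 and that for DKO from 1.02e-05 to 0.0685, and the highest value of each came from a pseudocount of 0.1 TPM and ended the call. At that pseudocount the SE of the GKO change was 0.535, and the spread behind it includes the primed libraries. The change in AKO cells was -0.29 (adjusted p = 0.556).

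Cdx2 lies on chromosome 5 (GRCm39 chr5:147237615-147244091, minus strand). The 218 bases before its first annotated base, taken from RefSeq promoter windows of GRCm38.p6 and placed by an exact match at 1 position on GRCm39 (chr5:147244092-147244309, minus strand), are shown because Cdx2 moved in both lines without Gys1. The capitals mark an octamer, ATGCAAAT, the letters bound by Pou5f1-type factors, which began 147 bases before the RefSeq start.
Cdx2: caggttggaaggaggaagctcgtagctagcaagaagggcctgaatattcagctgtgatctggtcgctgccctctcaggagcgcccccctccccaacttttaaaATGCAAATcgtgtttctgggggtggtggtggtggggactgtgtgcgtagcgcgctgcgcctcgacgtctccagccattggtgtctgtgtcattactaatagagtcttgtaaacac
Searched on both strands, the octamer was present in 1.6% of 32851 RefSeq windows of 250 bases. Neither the TEAD letters GGAATG (12.6% of windows) nor the TCF/LEF letters CTTTGAT (3.21%) were in the Cdx2 window, and the AP-2 letters GCCNNNGGC (13.7%) began 16 bases before the start, outside the stretch shown. These are matches of letters and not measured binding.

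Tfap2c, the AP-2γ factor of trophoblast, naïve ESCs and germ cells, separated GKO from every other line. GKO libraries held 23.2 and 24.3 TPM, and the naïve ones 6.68 and 6.29 TPM. AKO libraries held 7.40 and 6.54 TPM and DKO libraries 6.57 and 6.71 TPM, so that naïve, AKO and DKO overlapped. The 2 primed libraries were far apart, at 1.78 and 5.97 TPM. GKO exceeded naïve cells 3.66-fold in mean TPM, with a log2 change of 1.72 (SE 0.325, limma adjusted p = 0.00217, and 1.5e-06 to 0.0172 over the alternatives). The log2 change in DKO cells was 0.03 (adjusted p = 0.953) and that in AKO cells 0.09 (adjusted p = 0.973).

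Tead4, the TEAD factor that acts upstream of Cdx2 in the outer cells of the embryo, did not follow Cdx2. It read 12.9 and 12.9 TPM in naïve, 12.8 and 12.8 in GKO, 11.1 and 10.96 in AKO and 16.2 and 15.1 in DKO libraries. DKO cells were the highest, 1.22 times the naïve mean, and primed cells the lowest by far, at 0.294 and 0.316 TPM. No neighbouring lines overlapped, but the naïve and GKO libraries differed by less than 0.1 on the log2 scale. The change was -0.01 (SE 0.0612, limma adjusted p = 0.937) in GKO and 0.26 (adjusted p = 0.00726) in DKO cells. Without DKO replicate 1 the DKO change was 0.22 with an adjusted p of 0.0584, the highest of its alternatives, which began at 0.0028. In AKO cells the change was -0.21 (adjusted p = 0.273).

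Gata3, a GATA factor switched on beside Cdx2 in trophectoderm, was below 1 TPM in every library and lowest in GKO and primed cells. It read 0.911 and 0.629 TPM in naïve, 0.651 and 0.658 in AKO, 0.619 and 0.495 in DKO, 0.048 and 0.101 in GKO, and 0.171 and 0.022 in primed libraries. GKO libraries thus lay under all naïve, AKO and DKO ones, with a mean 10.3-fold lower than the naïve mean and 7.48-fold lower than the DKO mean. When no filter on low values was used, its log2 change in GKO cells was -0.72, with a limma adjusted p of 0.00108. In that fit it was also lower in primed than in naïve cells (-0.69, adjusted p = 0.000395) and in GKO than in DKO cells (-0.53, adjusted p = 0.00511).

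Hand1, a bHLH factor of trophoblast giant cells and of mesoderm, was highest in GKO cells. GKO libraries read 0.575 and 1.04 TPM, against 0.095 and 0.024 in naïve, 0.077 and 0.14 in AKO, 0.127 and 0.068 in DKO, and 0.026 and 0.023 in primed libraries. Both GKO libraries stood above all 8 others, and those of the other lines overlapped. With no filter the log2 change in GKO cells was 0.76 (limma adjusted p = 0.00174), and that of GKO against DKO cells was 0.71 (adjusted p = 0.00321). Elf5, the ETS factor that maintains trophoblast stem cells, was at or near 0 throughout: its highest value was 0.182 TPM in GKO replicate 1, while GKO replicate 2 read 0.018 TPM, and 4 of the other 8 libraries were listed at 0. With no filter Elf5 passed the test in none of the 7 comparisons, with a limma adjusted p of 0.182 in GKO against naïve cells.

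Krt8 and Krt18, the partner chains of the first embryonic filaments, rose together in GKO and in DKO cells. Krt8 read 6.81 and 7.02 TPM in naïve, 6.34 and 7.51 in AKO, 10.4 and 12.7 in DKO, 12.6 and 12.5 in GKO, and 18.3 and 10.7 in primed libraries. The libraries of primed, GKO and DKO cells overlapped and lay above those of naïve and AKO cells, which overlapped with each other. The log2 change was 0.78 (SE 0.197) in GKO cells, with a limma adjusted p of 0.00977, and 0.66 in DKO cells, with an adjusted p of 0.0234. Over the alternatives the adjusted p ran from 0.000287 to 0.0501 in GKO cells, the highest without naïve replicate 1. In DKO cells it ran from 0.000828 to 0.139, and the call was lost without naïve replicate 1 (0.0951), naïve replicate 2 (0.0802) or DKO replicate 2 (0.139) and with no filter (0.0566).

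Krt18 read 2.04 and 1.55 TPM in naïve, 2.08 and 2.21 in AKO, 2.77 and 2.73 in DKO, 4.20 and 4.14 in GKO, and 12.4 and 8.79 in primed libraries. The lines stood in that order with no overlap between neighbours. Mean TPM was 2.32 times the naïve level in GKO and 1.53 times in DKO cells. The log2 change was 0.89 (SE 0.141, limma adjusted p = 0.000829, and 7.73e-05 to 0.00912 over the alternatives) in GKO cells. In DKO cells it was 0.43 (adjusted p = 0.034), and the adjusted p over the alternatives ran from 0.00404 to 0.206: the call was lost without naïve replicate 2 (0.206), DKO replicate 1 (0.119) or DKO replicate 2 (0.107), with quantile normalization (0.106) and with no filter (0.0735). Per length, Krt8 exceeded Krt18 in every library. The annotation also holds a Krt8 processed pseudogene, so the share of reads given to Krt8 itself is uncertain.

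Both genes lie on chromosome 15 in the type II keratin cluster, Krt8 on the minus strand (GRCm39 chr15:101905133-101912917) and Krt18 on the plus strand (chr15:101936615-101940462), with their 5′ ends facing each other 23698 bases apart and 0 protein-coding genes between. The bases before each gene's first annotated base are shown for this pair because it moved together. They come from the same RefSeq windows, again with 1 exact match each, 110 bases for Krt8 (GRCm39 chr15:101912918-101913027, minus strand) and 214 for Krt18 (chr15:101936401-101936614, plus strand), and capitals mark the AP-2 letters.
Krt8: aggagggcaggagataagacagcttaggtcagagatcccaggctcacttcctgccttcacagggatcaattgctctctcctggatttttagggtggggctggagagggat
Krt18: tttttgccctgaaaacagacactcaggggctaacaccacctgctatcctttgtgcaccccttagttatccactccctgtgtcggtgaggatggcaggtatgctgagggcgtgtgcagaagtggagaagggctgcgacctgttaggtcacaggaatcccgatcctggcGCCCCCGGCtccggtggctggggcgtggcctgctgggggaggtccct
The AP-2 letters began 83 bases before the RefSeq start of Krt18. None of the 5 motifs searched (TEAD, AP-2, TCF/LEF, the octamer, and the GC box GGGCGG, which 32.7% of windows hold) was in the 250-base window of Krt8. Windows of Gata3, Elf5 and Krt7 were also searched. The AP-2 letters occurred at 3 positions for Gata3 and 2 for Krt7, and the GC box at 2 and 4 positions. For Elf5 the TEAD and the TCF/LEF letters each occurred at 1 position, in different windows. The AP-2 letters were thus not limited to genes that rose in GKO cells. No window was used for Tfap2c, Hand1, Tead4 or Krt19.

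Krt19, the small type I keratin of many simple epithelia, was near 1 TPM or below outside primed cells. It read 0.692 and 0.604 TPM in naïve, 0.568 and 0.562 in AKO, 0.712 and 0.634 in DKO, 1.08 and 0.838 in GKO, and 3.53 and 3.51 in primed libraries. GKO libraries lay above those of the 3 other naïve-medium lines, with a mean 1.48 times the naïve mean. The log2 change in GKO cells, 0.25 (SE 0.0834, limma adjusted p = 0.0342), was the weakest of the calls: it was 0.06 (adjusted p = 0.619) with quantile normalization, and without naïve replicate 1, naïve replicate 2 or GKO replicate 1 the adjusted p was 0.0742, 0.168 and 0.221, the change being 0.158 in the last case. With a pseudocount of 0.1 TPM it was 0.495 (adjusted p = 0.029), and the lowest adjusted p of its alternatives was 0.0175. In DKO cells its log2 change was 0.02 (adjusted p = 0.859). Krt7, the type II keratin of trophoblast and ducts, was at most 0.033 TPM in the 8 libraries of naïve medium and 0.572 and 0.131 TPM in the primed ones. With no filter its log2 change in primed against naïve cells was 0.41 (limma adjusted p = 0.0257).

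Cdx2 and Krt8 were higher in the Gys1-targeted line of both Prkaa1-intact and Prkaa1-targeted cells. The changes of Tfap2c, Tead4 and Krt18 differed between these settings. GKO minus naïve sets loss of Gys1 on the Prkaa1-intact background and DKO minus AKO on the Prkaa1-targeted one, and these comparisons share no library. AKO and DKO cells also differed in Prkaa1 RNA, with means of 7.09 and 2.17 TPM, so they are not apart in Gys1 alone. The clones are not stated, so loss of Gys1 cannot be told apart from a clone background that GKO and DKO cells may share. In DKO against AKO cells, 3 of 6 genes were called, all higher, against 46.3% of all genes called. They were Cdx2 (log2 change 1.40, limma adjusted p = 0.000115), Krt8 (0.66, adjusted p = 0.023) and Tead4 (0.47, adjusted p = 0.000356). Mean Cdx2 was 3.48 times as high in DKO as in AKO libraries. The Krt8 call was lost without AKO replicate 1 (adjusted p = 0.127) or DKO replicate 2 (0.139) and with no filter (0.055), and its lowest adjusted p was 0.000814.

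The difference between the 2 changes, tested as an interaction in limma, was called for 3 of 6 genes, against 25.8% of all genes. For Tfap2c the log2 change was 1.72 in Prkaa1-intact and -0.06 in Prkaa1-targeted cells, a difference of 1.78 (SE 0.46, adjusted p = 0.0217). For Tead4 the changes were -0.01 and 0.47, a difference of -0.48 (SE 0.0865, adjusted p = 0.00486, at most 0.0247 over the alternatives). For Krt18 they were 0.89 and 0.26, a difference of 0.63 (SE 0.199, adjusted p = 0.0458). The Tfap2c call was lost when any 1 of the 8 libraries was left out, with adjusted p from 0.053 to 0.0728, and so was the Krt18 call, with adjusted p from 0.0503 to 0.15. With no filter the adjusted p was 0.0566 for Tfap2c and 0.0952 for Krt18, and their lowest values over the alternatives were 3.86e-05 and 0.00587. For Cdx2 the difference was -0.27 (SE 0.21, adjusted p = 0.385), for Krt8 0.12 (SE 0.279, adjusted p = 0.79) and for Krt19 0.15 (SE 0.118, adjusted p = 0.381), and an SE of this size leaves room for differences that the test would miss. With no filter, the differences for Gata3 and Hand1 were -0.63 (adjusted p = 0.0192) and 0.77 (adjusted p = 0.0167).

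**Figure D3:**
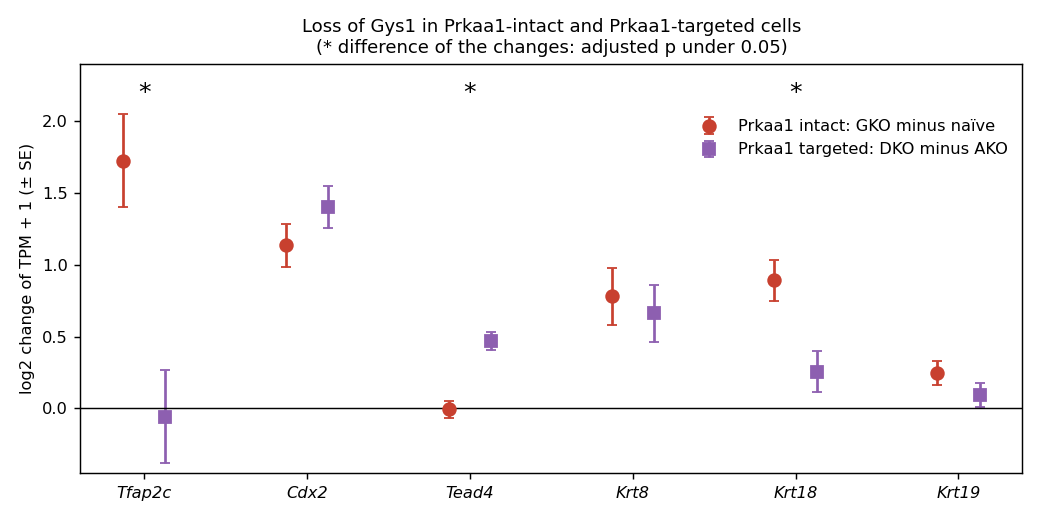
Log2 change of TPM + 1 with its standard error for GKO minus naïve (circles, Prkaa1-intact) and DKO minus AKO (squares, Prkaa1-targeted). Stars mark genes whose 2 changes differed at a limma adjusted p under 0.05. Tfap2c stands at 1.72 and -0.06, and Cdx2 at 1.13 and 1.40.

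Compared directly, GKO cells had more Tfap2c and Krt18 and less Tead4 than DKO cells, 3 of 6 genes against 43.5% of all genes called. Tfap2c was 3.57-fold higher in mean TPM (log2 change 1.69, limma adjusted p = 0.00316, at most 0.0234 over the alternatives). Krt18 was 1.51-fold higher (log2 change 0.46, adjusted p = 0.0267), a call that was lost without DKO replicate 1 (0.0899), DKO replicate 2 (0.105), GKO replicate 1 (0.106) or GKO replicate 2 (0.0927) and with no filter (0.0604), the lowest value being 0.00311. Tead4 was lower by -0.27 (adjusted p = 0.0072), with 0.0556 when DKO replicate 1 was left out and a lowest value of 0.00277. Cdx2 (0.03, SE 0.148, adjusted p = 0.903) and Krt8 (0.12, SE 0.197, adjusted p = 0.655) differed by less than their standard errors.

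In primed cells the transcription factors and the keratins parted: Cdx2 and Tead4 fell and Krt8, Krt18 and Krt19 rose. The calls, 5 of 6, stood beside 80.0% of all genes, and that of Krt19 is not independent of the filter, which it passed through the primed libraries. The mean of Tead4 was 42.2-fold lower than in naïve cells (log2 change -3.41, limma adjusted p = 2.67e-10) and that of Cdx2 was 9.8-fold lower (-1.54, adjusted p = 1.01e-05). The means of Krt18 and Krt19 were 5.9-fold and 5.43-fold higher (2.04 and 1.46, adjusted p = 1.02e-06 and 2.94e-07), and that of Krt8 was 2.1-fold higher (0.93, adjusted p = 0.00197). Tfap2c changed by -0.77 (adjusted p = 0.0545), and the value depended on which primed library was kept: it was -1.43 (adjusted p = 1.19e-06) without replicate 2 and -0.10 (0.293) without replicate 1. Tfap2c was also called with quantile normalization (-0.97, 0.0252) and with a filter at a mean of 5 TPM (0.0494). With a pseudocount of 0.1 TPM the changes of Cdx2 and Krt19 were -3.27 and 2.28, and without primed replicate 1 that of Krt8 was 0.565, all still called. Naïve and primed cells differed in medium, matrix and state at the same time, and these cannot be told apart.

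Several of these genes lie in chromosome segments whose genes leaned in a common direction, so each was set beside the other tested genes whose 5′ ends lie within 10 Mb, a window chosen after the data were seen. Around Tfap2c (GRCm39 chr2:172391321-172400542, plus strand) the 154 other genes had a median log2 change of 0.31 in GKO cells, with 86 called higher and 17 lower, and of 0.28 in DKO cells, with 80 higher and 13 lower. Over all tested genes 51.7% were called in GKO cells and 24.7% called higher, and in DKO cells 46.0% and 21.7%. The median around Tfap2c was -0.03 in AKO cells, with 0 called in either direction. Tfap2c was thus 1.42 above its surroundings in GKO cells and 0.25 below them in DKO cells, and in GKO cells 2 of the 154 genes rose and 2 fell by at least as much as Tfap2c rose. The 4 nearest tested genes, Rtf2, Aurka (a mitotic kinase), Cstf1 (a polyadenylation factor) and Fam210b, changed by 0.60, 0.31, 0.56 and 1.06 in GKO cells and by 0.60, 0.25, 0.44 and 0.59 in DKO cells.

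Around Cdx2 the segment moved the other way. Its 127 neighbours had a median log2 change of -0.27 in GKO cells, with 82 called lower and 8 higher, and of -0.24 in DKO cells, with 59 lower and 10 higher. These counts are to be read beside the same shares of all tested genes. Cdx2 was 1.40 above that median in GKO and 1.35 above it in DKO cells. Around Krt8 and Krt18 the 117 neighbours of each had medians of -0.12 in GKO and -0.15 in DKO cells, so Krt8 stood 0.90 and 0.81 above them and Krt18 1.01 and 0.58. Around Tead4 the 113 neighbours had medians of 0.14 and 0.15, which put Tead4 0.15 below them in GKO and 0.11 above them in DKO cells. The part of these segment medians in the changes of the genes was not tested.

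**Figure D4:**
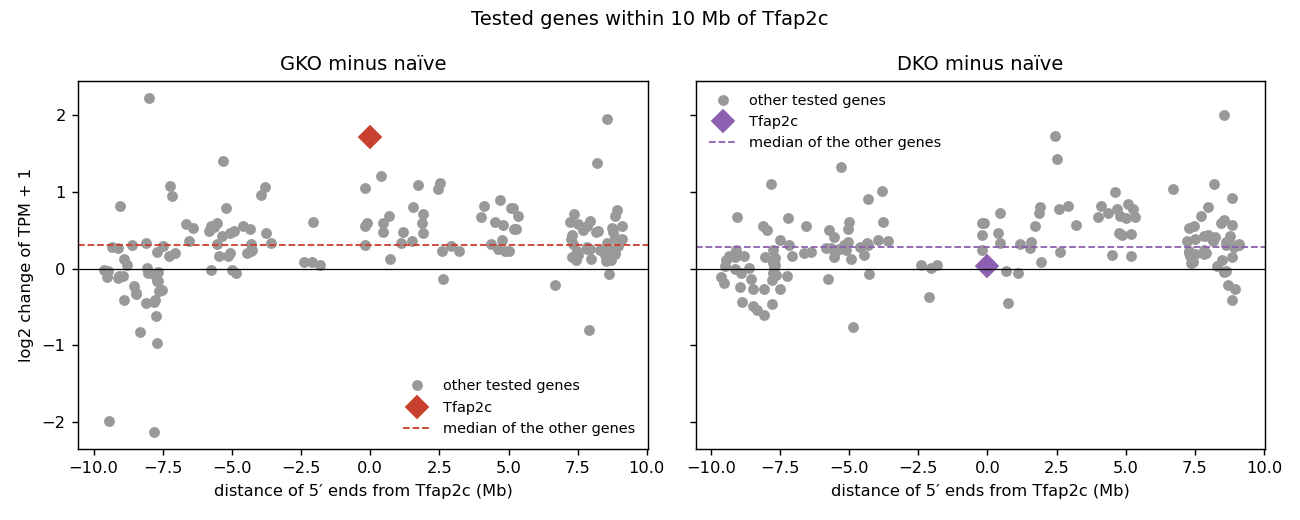
Log2 change of TPM + 1 in GKO and DKO cells for Tfap2c (diamond) and the 154 other tested genes within 10 Mb (grey), against the distance of their 5′ ends from that of Tfap2c; the dashed line is the median of the others. Tfap2c lies well above the line of 0.31 in GKO cells and under the line of 0.28 in DKO cells.

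Across all 10 libraries, the genes that tracked each factor most closely on the log2(TPM + 1) scale were picked as the 2 highest Pearson correlations among 9435 genes with at least 5 TPM in some line. For Cdx2 they were Heatr1, a ribosome biogenesis factor (r = 0.995), and Atp9a (0.991). For Tfap2c they were Jak1, the kinase of LIF-type receptors (0.974), and Klk8 (0.967). For Tead4 they were Nr5a2, a nuclear receptor of naïve ESCs (0.999), and Mreg (0.999). For Krt8 they were Cenpq (0.967) and Tpt1 (0.957), for Krt18 Cyp51, a sterol demethylase (0.997), and Raet1e (0.99), and for Krt19 Grik5 (0.997) and Tcaf1 (0.996). The points share lines and are not independent, the primed libraries weigh heavily on them, and the values are a description. Among the genes themselves, Krt8 and Krt18 correlated at 0.795 over 10 libraries and 0.865 over the 8 without primed cells. Cdx2 and Krt8 correlated at 0.957 over those 8 libraries and at 0.0455 over all 10, and primed cells had the least Cdx2 and, on average, the most Krt8.

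The other trophoblast transcription factors showed no common direction. The lists that follow are to be read beside the 51.7% of all tested genes called in GKO cells (24.7% higher). In DKO cells 46.0% were called (21.7% higher). Of 14 other trophoblast transcription factors, 12 were tested and 5 were called in GKO cells, 3 higher and 2 lower, with a median log2 change of 0.05, and 4 were called in DKO cells, 1 higher and 3 lower, with a median of -0.07, both shares under those of all genes. Tfap2a, the AP-2α relative of Tfap2c, read 9.89 and 10.97 TPM in naïve and 4.77 and 4.65 in GKO libraries (log2 change -1.0, limma adjusted p = 0.000151), so the 2 AP-2 genes moved in opposite directions in GKO cells. Id2, an inhibitor of bHLH factors, read 5.68 and 6.19 TPM in naïve, 1.61 and 1.78 in GKO libraries (-1.36, adjusted p = 0.000139) and 3.06 and 3.42 in DKO libraries (-0.71, adjusted p = 0.00553). Eomes and Gata2 were looked at after their values were seen. Eomes, the T-box factor of trophoblast stem cells, read 19.8 and 20.3 TPM in naïve and 17.7 and 17.0 in GKO libraries. Gata2, a partner of Gata3, read 0.516 and 0.663 TPM in naïve, 4.68 and 4.39 in GKO and 3.19 and 4.76 in DKO libraries. The means of Gata2 stayed under the 5 TPM needed to be named with a test. Gata2 reached 1 TPM only in the GKO and DKO libraries, so its part in the counts of this list is not independent of the filter.

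Products of later trophoblast were mostly absent. Of 14 surface and secreted products 5 were tested, of which 4 were called higher in GKO and 1 higher and 3 lower in DKO cells, beside 51.7% and 46.0% of all genes called. Fgfr2, called higher in GKO cells, read only 0.365 and 0.283 TPM there and passed the filter only through the primed libraries. Rhox6, also called higher, went from 0.897 and 0.96 TPM in naïve to 1.73 and 1.37 in GKO libraries. It passed the filter only through AKO and GKO libraries. Of all 14, 5 were at 0 in both libraries of GKO and of naïve cells. Peg10, an imprinted gene needed for placental growth, made up most of the list's level, at 19.9 and 19.6 TPM in naïve, 58.4 and 52.5 in GKO libraries (log2 change 1.44, limma adjusted p = 0.000109) and 13.7 and 13.8 in DKO libraries (-0.49, adjusted p = 0.0307).

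Most genes of the blastocyst's epithelial junctions and transport rose in GKO cells. All 17 were tested, and 11 were called higher and 1 lower, with a median log2 change of 0.42, beside 24.7% of all tested genes called higher and a median of -0.01. In DKO cells 5 were higher and 3 lower, with a median of 0.08, and in AKO cells 1 was lower. In primed cells 8 were called higher and 9 lower, with a median of -0.17, beside 80.0% of all genes called. The list was chosen with earlier results of these data known, so these shares are a description. Epcam, an epithelial adhesion molecule, read 7.18 and 7.54 TPM in naïve, 24.7 and 25.8 in GKO libraries (1.65, limma adjusted p = 1.46e-06) and 11.4 and 9.72 in DKO libraries (0.46, adjusted p = 0.00126). Primed libraries held more Epcam than GKO ones, at 50.9 and 51.3 TPM. Pkp2, a plakophilin of desmosomes, went from 8.42 and 8.41 to 18.6 and 17.8 TPM in GKO libraries (1.03, adjusted p = 1.19e-05). Aqp3, a water channel, read 30.2 and 28.7 TPM in naïve, 46.6 and 43.98 in GKO libraries (0.60, adjusted p = 0.000145) and 43.7 and 47.6 in DKO libraries (0.62, adjusted p = 0.000171), and it was the gene called lower in AKO cells, at 19.7 and 21.9 TPM (-0.48, adjusted p = 0.039).

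The Hippo and TEAD genes showed no common direction and were called about as often as all genes (51.7% in GKO and 46.0% in DKO cells). Of 19 genes 18 were tested, with 6 called higher and 5 lower in GKO cells (median log2 change -0.06) and 5 higher and 4 lower in DKO cells (0.04). Ccn2, a target of Yap1 and TEAD factors, read 12.3 and 10.0 TPM in naïve and 5.95 and 5.19 in GKO libraries (-0.89, limma adjusted p = 0.0475), and Vgll4, a cofactor that restrains TEADs, 5.38 and 5.36 and then 2.57 and 3.29 (-0.70, adjusted p = 0.00701). In DKO libraries Ccn1, another such target, read 12.4 and 12.6 TPM against 6.11 and 5.66 in naïve ones (0.97, adjusted p = 0.00508). Tead1 was higher in both lines, at 27.6 and 29.2 TPM in naïve, 42.5 and 39.9 in GKO libraries (0.52, adjusted p = 0.000109) and 40.4 and 38.8 in DKO libraries (0.47, adjusted p = 0.000255).

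Among 12 other keratins 3 were tested, of which 2 were called higher in GKO cells and 1 higher and 1 lower in DKO cells, beside 51.7% and 46.0% of all genes called. Krt42, a type I keratin, held most of that list, at 7.52 and 6.99 TPM in naïve, 15.8 and 15.6 in GKO libraries (log2 change 1.02, limma adjusted p = 8.9e-06) and 5.37 and 5.53 in DKO libraries (-0.36, adjusted p = 0.00251). Of 8 filament partners 6 were tested, with 3 higher and 1 lower in GKO and 3 higher in DKO cells, against the same shares. Dsg2, the desmoglein of simple epithelia, rose in both lines, from 5.32 and 5.45 TPM in naïve to 10.98 and 11.3 in GKO libraries (0.93, adjusted p = 1.61e-05) and 22.5 and 21.3 in DKO libraries (1.84, adjusted p = 6.86e-07). Nes, the neural stem cell filament nestin, rose in GKO cells (0.83, adjusted p = 0.000165). Plec, a linker of filaments, rose in GKO (0.67, adjusted p = 9.24e-05) and in DKO cells (0.69, adjusted p = 0.000108).

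**Figure D5:**
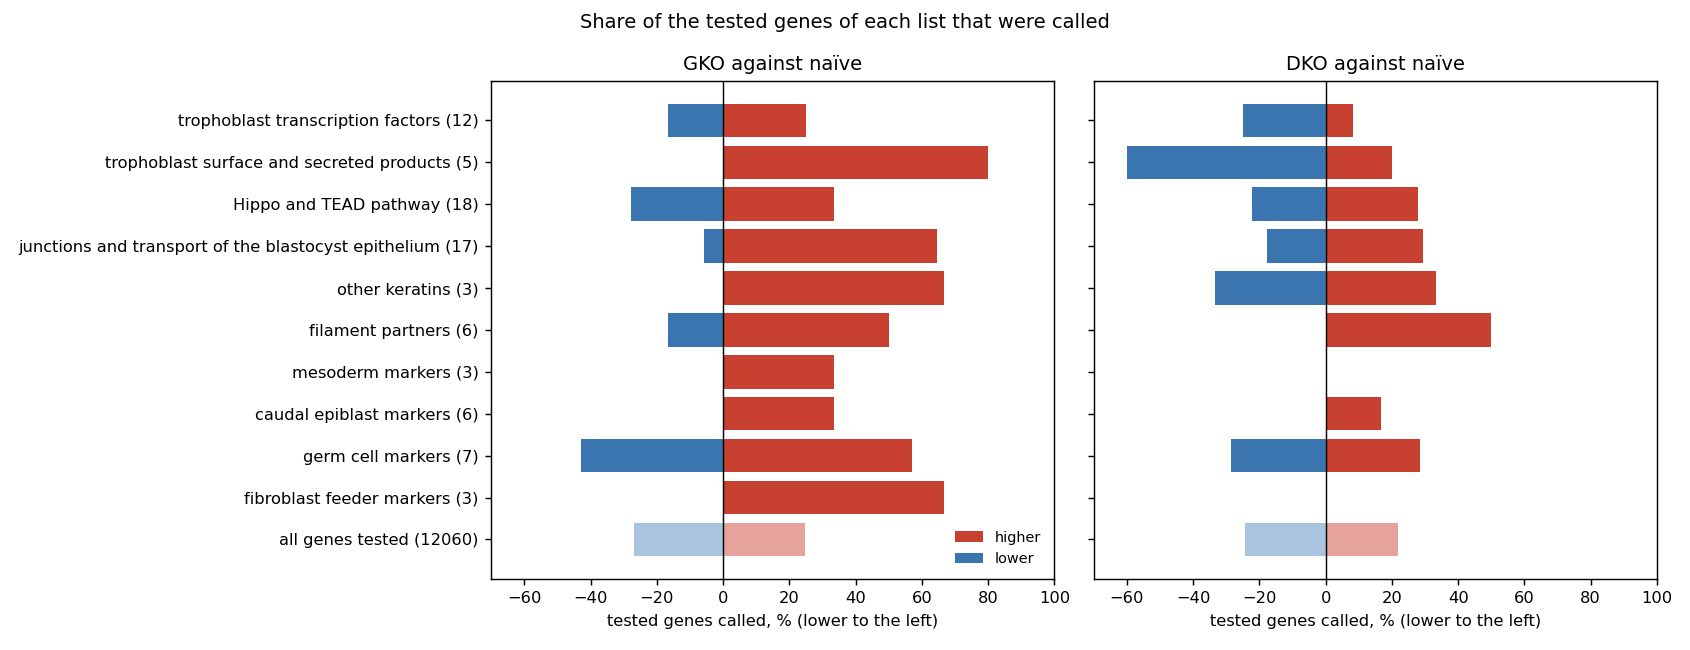
Share of the tested genes of each list (number in brackets) called higher (right) or lower (left) at a limma adjusted p under 0.05 in GKO and DKO against naïve cells, above the share over all 12060 tested genes. The junction genes reach 11 of 17 called higher in GKO and 5 of 17 in DKO cells. The lists were chosen with earlier results of these data known.

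Markers of the other cell types that express these genes were examined in the same way, beside 51.7% of all genes called in GKO and 46.0% in DKO cells. Of 8 caudal epiblast markers 6 were tested, and 2 were called higher in GKO cells: Cdx1, the relative of Cdx2, from 29.6 and 29.0 to 63.6 and 66.5 TPM (log2 change 1.12, limma adjusted p = 2.78e-05), and Nkx1-2, from 18.2 and 19.5 to 34.9 and 37.1 TPM (0.90, adjusted p = 0.036). The summed level of that list, of which 1 gene was called higher in DKO cells, was 51.5 to 51.9 TPM in naïve, 103 to 108 in GKO and 45.7 to 46.7 in DKO libraries, so it was higher beside Cdx2 in GKO but not in DKO libraries. All 7 germ cell markers were called in GKO cells, 4 higher and 3 lower, among them Ddx4, a germline helicase (1.68, adjusted p = 5.45e-06), and Dazl, a germline RNA-binding protein (-0.91, adjusted p = 2.16e-05). Their sum was 33.9 to 34.7 TPM in naïve, 38.8 to 41.5 in GKO and 32.1 to 34.9 in DKO libraries, and 2 were called higher and 2 lower in DKO cells. Of 8 mesoderm markers 3 were tested and 1, Bmp4, was called higher in GKO cells (0.38, adjusted p = 0.008), and in DKO cells 0 of the 3 were called.

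Primitive endoderm, which also carries Krt8 and Krt18, was close to absent: its 8 markers summed to 1.75 to 1.86 TPM in naïve, 2.29 to 2.43 in GKO and 1.21 to 1.35 in DKO libraries, and of 2 tested 1 was higher and 1 lower in GKO cells and 1 lower in DKO cells. The higher one, Gata4, passed the filter only through the GKO libraries (1.39 and 1.31 TPM), so its part in that count is not independent of the filter. The 7 fibroblast markers summed to 2.88 to 3.46 TPM in naïve, 7.97 to 9.22 in GKO and 2.38 to 2.44 in DKO libraries, with 2 of 3 tested called higher in GKO and 0 in DKO cells. Thy1 (1.24 on the log2 scale, limma adjusted p = 0.0131) gave most of that level in GKO cells, and Postn, Dcn and Lum were at 0 there. The 7 markers of the totipotent-like state summed to 1.02 to 1.25 TPM in naïve, 0.077 to 0.121 in GKO and 1.498 to 2.18 in DKO libraries, and none could be tested. Of the naïve pluripotency markers 3 of 9 were called in GKO and 4 in DKO cells, all higher, which is under the 51.7% and 46.0% of all genes called. Of 6 tested primed markers 1 was higher and 1 lower in GKO cells and 1 higher and 4 lower in DKO cells, with Zic2 at 1.196 (adjusted p = 3.97e-05) in GKO and -1.35 (adjusted p = 2.91e-05) in DKO cells. The part of these other programmes in the levels of the trophectoderm genes was not tested.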

How the data were processed

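Each of the 10 libraries came with a table of 21853 protein-coding genes in TPM, which the authors computed with RSEM (1.3.3) after Trim Galore (0.6.6) and STAR (2.7.9a), as listed in the submitters' processing notes. Those notes name GRCm38 and GRCh38, while the study's methods give GRCm39, and the labels and methods also differ on the library kit, so the build of the TPM values is not settled here. Coordinates are from GENCODE and RefSeq on GRCm39. TPM keeps no read depth, so no counting interval is given. Rows that repeat an earlier symbol (26, none of the 10 genes described) were kept as separate rows.

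Genes with at least 1 TPM in 2 libraries were fitted on log2(TPM + 1), which understates the change of low genes, with limma (3.58.1, intensity trend, R 4.3.3) in a fit of all 10 libraries with a mean per line, Benjamini-Hochberg adjustment over all 12060 genes of a comparison and calls at 0.05. The spread of a gene was pooled over all 5 lines, so the primed libraries weigh on comparisons that do not hold them. The study names no test for these genes. A single gene with 2 libraries against 2 cannot reach below p = 0.333 in an exact two-sided permutation test. The procedure was tested on simulated data whose spread came from the naïve, AKO, DKO and GKO libraries. The spread of the primed libraries was not in them, and it was wider, with a median log2 replicate difference of 0.127 against 0.0555 in naïve. The genes and lists were chosen with earlier results of these data known. From each wider list, at most the 2 called genes with the largest change per comparison, with a mean of 5 TPM or more and no overlap, were named, and the genes most alike in pattern by correlation. The alternatives were another pseudocount (0.1), 2 other filters, quantile normalization, median-ratio scaling, no trend, a minimum log2 change of 1, fewer lines, a replicate block and leaving out each library.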

Additional observations from a re-analysis of the deposited data

Results flagged for a closer look

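By the limma interaction test on log2(TPM + 1), 3 of the 6 tested genes were called, against 25.8% of all tested genes. For these, the change in the Gys1-targeted line differed between Prkaa1-intact and Prkaa1-targeted cells. The log2 change of GKO against naïve cells minus that of DKO against AKO cells was 1.78 for Tfap2c, -0.48 for Tead4 and 0.63 for Krt18. Tfap2c was higher in 2 of 2 GKO libraries than in any naïve library, while the DKO and AKO libraries overlapped. Tead4 was higher in 2 of 2 DKO libraries than in any AKO library, while the naïve and GKO means were 0.01 apart on that scale. Krt18 rose by 0.89 in GKO against naïve cells, and its change of 0.26 in DKO against AKO cells did not pass the test (limma adjusted p = 0.169). The interaction calls of Tfap2c and Krt18 were lost with any 1 library left out (adjusted p up to 0.0728 and 0.15) and with no filter (0.0566 and 0.0952), and that of Tead4 was kept in each of these. With 2 libraries per line, no single library could be tested as standing apart.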

How the results depend on the processing

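Of 585 recomputed changes of the 6 genes, 504 kept direction and side of the threshold, 58 lost the call, 8 gained one and 15 changed sign. With a minimum log2 change of 1, the calls against naïve cells were 433 genes in GKO, 357 in DKO, 1 in AKO and 3355 in primed cells, and otherwise 323 (GKO against DKO), 375 (DKO against AKO) and 349 (interaction), and of the 6 genes 2 (GKO), 1 (DKO), 1 (GKO against DKO), 1 (DKO against AKO) and 1 (interaction). A mean filter of 5 TPM, which Cdx2, Krt18 and Krt19 do not pass, gave 2 (GKO), 2 (DKO) and 3 (primed, with Tfap2c gained) of them, and no filter 2 (DKO) and 1 (interaction). The 27 genes called in AKO became 13 (pseudocount 0.1), 17 (5 TPM filter), 0 (only the lines compared), 131 (without primed libraries), 1 to 3 (any 1 of the 4 libraries left out) and 8 (replicate block). Leaving out a library gave 1944 to 2400 genes for the interaction, against 3116, the lowest without naïve replicate 1, and of the 6 genes 3 to 5 (GKO), 2 to 3 (DKO), 1 to 3 (GKO against DKO) and 1 (interaction). Changes near 0 turned sign: with quantile normalization Tead4 in GKO (0.0282), Krt19 in DKO (-0.11) and in DKO against AKO (-0.0218) and Krt8 in AKO (0.0118); with median-ratio scaling Tead4 in GKO (0.0179) and Krt8 in AKO (0.00605); and over the left-out libraries Tfap2c in DKO (-0.00825 to 0.0667) and in DKO against AKO (-0.136 to 0.0192), Krt19 in DKO (-0.0167 to 0.0604), Krt8 in AKO (-0.109 to 0.105), in GKO against DKO (-0.00996 to 0.253) and for the interaction (-0.0119 to 0.251), and Cdx2 in GKO against DKO (-0.0322 to 0.0855). Settings with fewer libraries did not all call fewer genes. In GKO against naïve cells 7286 were called without the primed libraries and 7292 with only the lines compared, against 6241. The causes of the differences between settings were not tested.

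Same-numbered libraries did not deviate together (correlations of replicate differences from -0.13 to 0.08), so no shared effect of the replicate number was seen. The correlations cannot tell whether same-numbered libraries were prepared together. The replicate block moved calls to 6046 (GKO), 5382 (DKO) and 8 (AKO) genes and changed no other call of the 6 genes. No scaling moved the median of all genes by over 0.1. TPM hides read depth, so the precision of the 4 genes under the filter is unknown.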
